A study of Mus musculus with 8 samples.

Results

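The genes described here encode proteins that control the permeability of the outer mitochondrial membrane in apoptosis or are released through it. They are 10 mitochondrial apoptosis genes chosen by symbol, of 55401 genes in the deposited tables, and each symbol matched 1 gene. Of these, 3 encode pro-survival proteins of the BCL2 family (Mcl1, Bcl2 and Bcl2l1), 5 encode pro-death proteins of the same family (Bak1, Bid, Bad, Bcl2l11 and Pmaip1), and 2 encode proteins that leave the mitochondrion when the membrane is breached (Cycs and Diablo). Abundance is given as TPM, a length-corrected share of each sample's transcripts that sums to the same total in every sample. All 10 passed the abundance filter (TPM not under 1 in 4 or more of the 8 samples), as did 12122 genes in all. Groups were compared with limma, a linear model that pools the spread across genes, and adjusted p-values are corrected over all tested genes. Since the total of TPM is fixed, differences were also computed under 3 other scalings: by the median ratio between samples, by the upper quartile of tested genes, and after leaving out the genes of the mitochondrial chromosome.

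RNA-seq was performed on AML12 cells, a hepatocyte line from a mouse transgenic for human TGF-alpha. In the ELF-WMF group, 4 dishes were kept for 1 h under a pulsed extremely low frequency weak magnetic field with a peak of 100 mG, a pulse width of 4 ms and pulse frequencies stepping from 1 to 8 Hz at 1 s each, so that a cycle lasted 8 s. In the control group, 4 dishes stood for 1 h in another incubator of the same model with the stimulator off, so that incubator and field cannot be told apart. The paper states that control and stimulated cells were prepared together from 1 culture batch. It does not say whether the 4 replicates of a group shared that batch. If they did, p-values measure only the spread between dishes of that batch. Since TPM keeps no sequencing depth, the depth of each sample is unknown, and no counting error is given. The number of genes detected above 0 TPM ranged from 19386 to 20114 per sample.

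Proteins of the BCL2 family meet at the outer mitochondrial membrane. Pro-survival members hold the effectors BAK and BAX in check, whereas BH3-only proteins, named for the short BH3 helix that they insert into a groove of their partners, either block the pro-survival members or activate the effectors directly. Active effectors form pores through which cytochrome c and SMAC leave the intermembrane space, cytochrome c then assembles the apoptosome that activates caspase-9, and SMAC relieves caspases from inhibitor of apoptosis proteins. Hepatocytes depend on BCL-XL and MCL-1 for survival, and they rely on BID to pass a death receptor signal to mitochondria.

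The coding sequence of the BH3 region is shown because BH3-only proteins insert this helix into a groove of their partners. The matching stretch of the other members is shown for comparison. Each window holds 33 bases of coding sequence from the GENCODE M21 transcripts on GRCm38, read 5′ to 3′ on the coding strand, and lies within 1 exon. Capitals mark the codons of a BH3-like core, defined as leucine, any 3 residues, then glycine, alanine or serine, then aspartate. These 7 members each held 1 match.
Mcl1, chr3:95659427-95659459, plus strand, exon 1: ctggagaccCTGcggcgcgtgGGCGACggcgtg
Bcl2, chr1:106712578-106712610, minus strand, exon 1: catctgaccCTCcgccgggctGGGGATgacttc
Bcl2l1, chr2:152829700-152829732, minus strand, exon 2: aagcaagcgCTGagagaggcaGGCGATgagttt
Bak1, chr17:27022534-27022566, minus strand, exon 4: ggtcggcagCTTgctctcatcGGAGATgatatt
Bid, chr6:120897292-120897324, minus strand, exon 4: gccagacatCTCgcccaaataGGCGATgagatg
Bad, chr19:6950783-6950815, plus strand, exon 3: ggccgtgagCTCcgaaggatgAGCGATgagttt
Bcl2l11, chr2:128147141-128147173, plus strand, exon 3: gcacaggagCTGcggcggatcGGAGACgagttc

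All 7 windows read a leucine codon and an aspartate codon at the same spacing, and the small residue before the aspartate was encoded by a glycine codon in each except Bad, which had a serine codon. The core is short, and 7338 of 21584 mouse coding genes (34%) held at least 1 match, so a match alone does not show a binding site. Pmaip1 held 2 matches. In Cycs the motif shown is the heme attachment motif of cytochrome c, a cysteine, any 2 residues, then cysteine and histidine, whose codons are in capitals. It was held by 447 of the 21584 coding genes (2.07%).
Cycs, chr6:50565595-50565627, minus strand, exon 2: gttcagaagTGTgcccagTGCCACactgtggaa

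The cell type was checked against its markers. Of 6 hepatocyte markers, 5 had a mean TPM of at least 1, led by Ttr (353) and followed by Hnf4a (193) and Alb (52.4), whereas Tat, an enzyme of mature hepatocytes, stayed between 0.07 and 0.24. The cytoskeletal genes Krt8 (2305), Krt18 (1967), Krt19 (1161) and Vim (1407) were abundant, and the biliary gene Sox9 was at 31.0 TPM. Vim stood alone among the 5 fibroblast or stellate cell markers, since the means of Col1a1, Acta2, Col1a2 and Pdgfrb were 0.631, 0.21, 0.139 and 0.0138 TPM. Col1a2 was 0.37, 0.28, 0.41 and 0.01 TPM in control dishes and 0.02, 0.01, 0.01 and 0 TPM in ELF-WMF dishes, so that control replicates 1 to 3 stood above the other 5 dishes. Pdgfrb was 0.02 to 0.05 TPM in the same 3 control dishes and listed at 0 in the other 5. Cdh5 of endothelial cells and Adgre1 of macrophages were listed at 0 in every sample, and Pecam1, Kdr, Ptprc and Epcam did not exceed 0.2 TPM in any of them. Cd68, found in macrophages and at low levels in many cells, had a mean of 1.598 TPM. Csf1r of the same leukocyte list was between 0.01 and 0.03 TPM in control dishes and between 0.04 and 0.06 TPM in ELF-WMF dishes, which did not overlap. The summed TPM of the 3 epithelial markers was 4334, 4393, 4203 and 4377 in control dishes and 4560, 4684, 4475 and 4548 in ELF-WMF dishes. The groups did not overlap in that sum, nor in 2 of the 3 genes, Krt8 and Krt18, and overlapped in Cdh1. Among all tested genes the groups did not overlap in 9.87%. These marker values are TPM as deposited, and the part of the epithelial sum in the values of the members was not tested. Summed hepatocyte markers ranged from 579 to 645 and overlapped between groups. In bulk RNA, fewer cells of a type and less RNA per cell cannot be told apart.

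By mean TPM over the 8 samples, a level per transcript length, Bcl2l1 was the most abundant member (264 TPM), followed by Cycs (223), Bid (121), Bad (79.3), Mcl1 (75.4), Bak1 (65.9), Pmaip1 (36.4), Diablo (34.2), Bcl2l11 (10.9) and Bcl2 (2.88). The ranges over 8 dishes overlapped between Bad and Mcl1, between Mcl1 and Bak1 and between Pmaip1 and Diablo, and the other neighbours in this order did not overlap. Bcl2l1 lay at the 95.5th percentile of the mean TPM of tested genes and Bcl2 at the 12.8th, and 8 of the 10 members lay above the median. The order of levels therefore separated the 3 pro-survival genes widely from each other, while the largest difference between the groups, that of Bcl2l11, was a log2 fold change of -0.10.

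**Figure D1:**
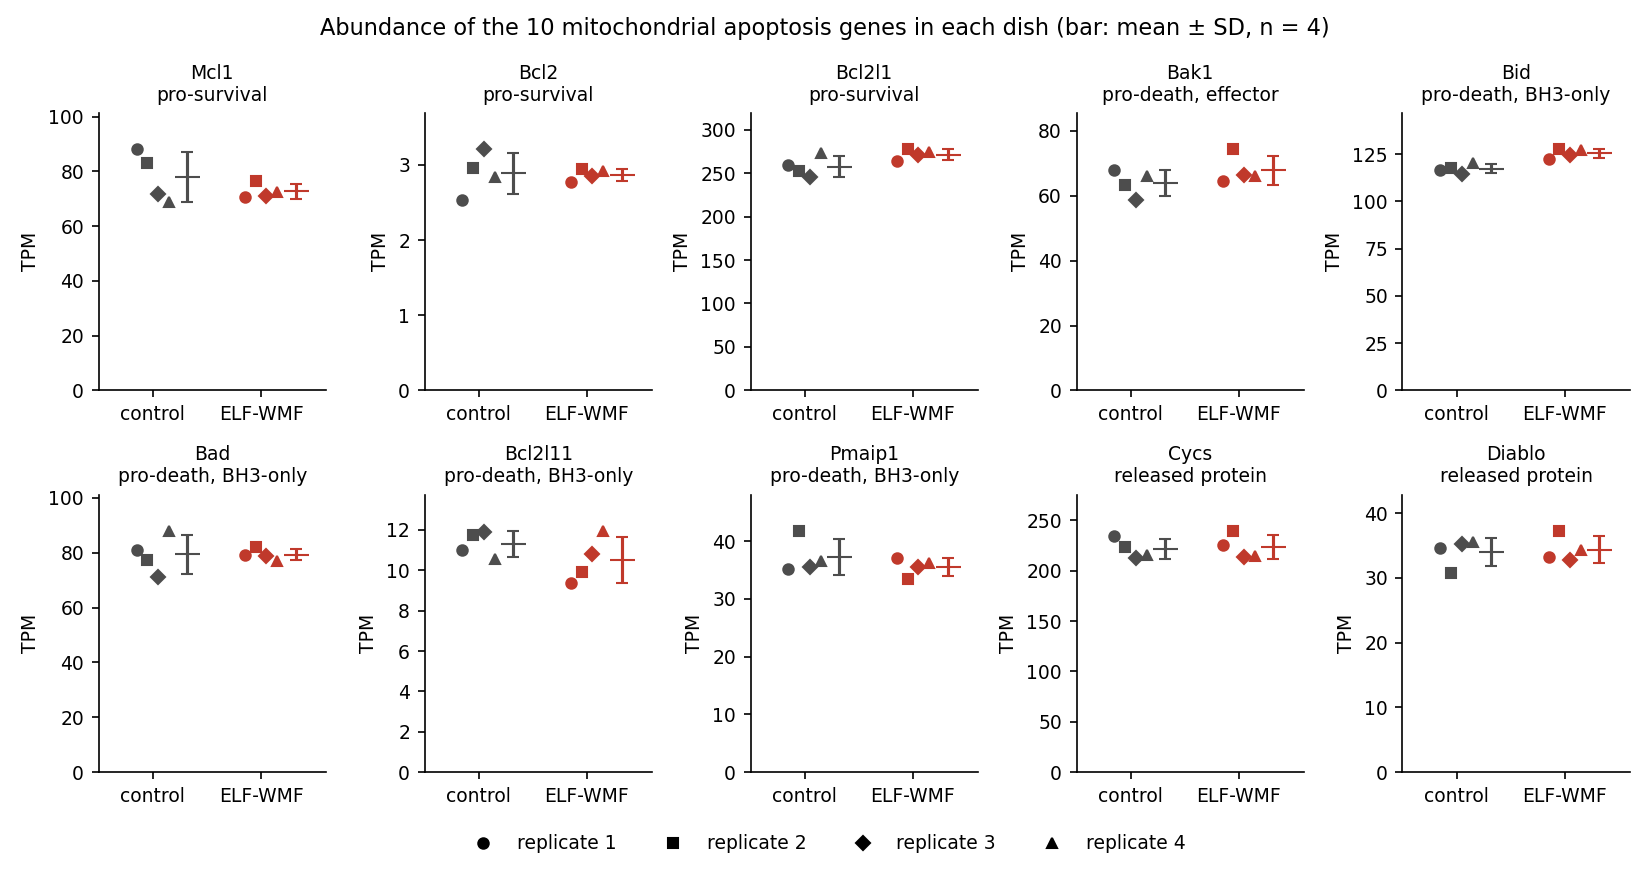
TPM of each of the 10 members in 4 control dishes (grey) and 4 ELF-WMF dishes (red), with each axis starting at 0, symbols for the replicate number and bars for the mean ± SD (n = 4). The groups are separate in the panel of Bid (114.7 to 120.3 against 122.3 to 127.7 TPM) and overlap in the other 9 panels.

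Among the pro-survival genes, Bcl2l1 (ENSMUSG00000007659, chromosome 2 from 152780668 to 152831728) encodes BCL-XL, which binds BAK, BAX and several BH3-only proteins. Its TPM was 258.8, 252.1, 245.5 and 273.4 in control dishes and 263.4, 277.5, 270.3 and 274.4 in ELF-WMF dishes. Control replicate 4 lay among the ELF-WMF dishes and the other 3 control dishes lay below all of them. The means were 257.4 ± 11.95 (SD, n = 4) and 271.4 ± 6.1 (SD, n = 4), a log2 fold change of 0.077 with a 95% interval from -0.00055 to 0.154 (limma, unadjusted p = 0.0513, adjusted p = 0.323). Without control replicate 4 it was 0.11 (limma, unadjusted p = 0.00669, adjusted p = 0.219) and without ELF-WMF replicate 1 it was 0.091 (limma, unadjusted p = 0.0371, adjusted p = 0.275). It was lower, 0.054, without control replicate 3 (limma adjusted p = 0.535), and 0.047, 0.043 and 0.047 with median-of-ratios scaling, with upper-quartile scaling and without the mitochondrial genes (limma adjusted p = 0.629, 0.657 and 0.661).

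Mcl1 (ENSMUSG00000038612, chromosome 3 from 95658788 to 95663176) encodes a short-lived protein that is lost quickly when its synthesis stops. Its TPM was 88.2, 83.2, 71.7 and 69.0 in control dishes and 70.7, 76.6, 71.0 and 72.5 in ELF-WMF dishes. Control replicates 1 and 2 were the highest of the 8 dishes, and the other control dishes lay within or below the ELF-WMF range. The log2 fold change was -0.094 with a 95% interval from -0.256 to 0.069 (limma, unadjusted p = 0.226, adjusted p = 0.585). The SD between control dishes was 9.15 TPM and that between ELF-WMF dishes 2.71 TPM. The size rested on single dishes: it was -0.15 without control replicate 4 (limma, unadjusted p = 0.0492, adjusted p = 0.359), but -0.033 without control replicate 1 (adjusted p = 0.86) and -0.061 without control replicate 2 (adjusted p = 0.798). With the 3 other scalings the log2 fold change of Mcl1 was -0.123 to -0.127 (limma adjusted p = 0.554 to 0.573).

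Bcl2 (ENSMUSG00000057329, chromosome 1 from 106538178 to 106714274), which gave the family its name, was near the bottom of the tested range. It had 2.54, 2.96, 3.21 and 2.84 TPM in control dishes and 2.77, 2.95, 2.85 and 2.92 TPM in ELF-WMF dishes. All ELF-WMF dishes lay within the control range, and the log2 fold change on log2(TPM + 1), a scale that understates the change of such low genes, was -0.0030 (95% interval -0.174 to 0.168, limma adjusted p = 0.991). Its sign was not stable: with 1 dish left out it ran from -0.047 (without control replicate 1) to 0.036 (without control replicate 3), and it was also above 0 without control replicate 2 (0.0068) or ELF-WMF replicate 1 (0.0098). Under the 3 other scalings it was -0.025 to -0.028.

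The effector Bak1 (ENSMUSG00000057789, chromosome 17 from 27019810 to 27029009) encodes BAK, which sits in the outer membrane and forms the pore. Its TPM was 67.9, 63.2, 58.8 and 66.1 in control dishes and 64.6, 74.4, 66.5 and 66.1 in ELF-WMF dishes. The highest value was that of ELF-WMF replicate 2, and the groups overlapped. The log2 fold change was 0.084 with a 95% interval from -0.040 to 0.207 (limma, unadjusted p = 0.161, adjusted p = 0.511). It was 0.044 without control replicate 3 and 0.040 without ELF-WMF replicate 2, but 0.11 without control replicate 1 or ELF-WMF replicate 1. It was 0.055, 0.050 and 0.054 with median-of-ratios scaling, with upper-quartile scaling and without the mitochondrial genes. Bax, the other main effector and not a member, was more abundant at 392.6 ± 6.4 TPM (SD, n = 4) in controls and 404.2 ± 16.0 TPM (SD, n = 4) in ELF-WMF dishes (log2 fold change 0.041, limma adjusted p = 0.566). For Bax it was 0.068 without ELF-WMF replicate 3, with separate groups (limma, unadjusted p = 0.0232, adjusted p = 0.282), but 0.023 without ELF-WMF replicate 2, and 0.012, 0.0076 and 0.012 with median-of-ratios scaling, with upper-quartile scaling and without the mitochondrial genes.

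Of the BH3-only genes, Bid (ENSMUSG00000004446, chromosome 6 from 120891930 to 120916853) encodes the protein that caspase-8 cleaves to carry a death receptor signal to mitochondria. Its TPM was 116.4, 117.8, 114.7 and 120.3 in control dishes and 122.3, 127.7, 124.5 and 127.3 in ELF-WMF dishes. All 4 ELF-WMF dishes lay above all 4 control dishes, and the means of 117.3 ± 2.4 (SD, n = 4) and 125.4 ± 2.5 (SD, n = 4) lay further apart than the SD of either group. The log2 fold change was 0.096 with a 95% interval from 0.037 to 0.154 (limma, unadjusted p = 0.00457), and it did not pass the correction over all tested genes (adjusted p = 0.144). It was smaller with median-of-ratios scaling (0.067) and upper-quartile scaling (0.062), with groups still separate. Without the mitochondrial genes it was 0.066, and the groups overlapped. The far end of Bid overlaps Bcl2l13 on the opposite strand (60.9 TPM), whose log2 fold change was 0.040 (limma adjusted p = 0.865). For Bcl2l13 it was -0.043 without control replicate 1, 0.010 without ELF-WMF replicate 2 and 0.0064 to 0.011 under the 3 other scalings. It was 0.061 without control replicate 2, 0.090 without control replicate 4 and 0.089 without ELF-WMF replicate 1. The library kit keeps strand, but whether counting used it is not given in the sources used here, so reads of the shared stretch are uncertain.

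Bad (ENSMUSG00000024959, chromosome 19 from 6941861 to 6951899) encodes a BH3-only protein that survival signalling keeps phosphorylated and inactive. It had 81.0, 77.3, 71.3 and 88.0 TPM in control dishes and 79.1, 82.0, 79.0 and 77.1 TPM in ELF-WMF dishes. Control dishes held both the lowest and the highest value, and the log2 fold change was 0.0020 (95% interval -0.123 to 0.127, limma adjusted p = 0.993), and it lay below 0 under the 3 other scalings. With 1 dish left out it ran from -0.047 (without control replicate 3) to 0.052 (without control replicate 4), and it was also below 0 without control replicate 2 (-0.0095) or ELF-WMF replicate 2 (-0.014). It was 0.013 without control replicate 1 and 0.015 without ELF-WMF replicate 4. Bad overlaps Gpr137 on the opposite strand (31.3 TPM), with the same uncertainty as for Bid.

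Bcl2l11 (ENSMUSG00000027381, chromosome 2 from 128126038 to 128162547) encodes BIM, which binds all pro-survival members. Its TPM was 11.02, 11.77, 11.88 and 10.55 in control dishes and 9.35, 9.91, 10.80 and 11.95 in ELF-WMF dishes. ELF-WMF replicates 1 and 2 were the lowest of the 8 dishes and ELF-WMF replicate 4 was the highest. The log2 fold change was -0.10 with a 95% interval from -0.267 to 0.065 (limma, unadjusted p = 0.204, adjusted p = 0.561). Leaving out ELF-WMF dishes moved it both ways, to -0.16 without replicate 4 (limma, unadjusted p = 0.0413, adjusted p = 0.292) and to -0.052 without replicate 1 (unadjusted p = 0.483, adjusted p = 0.753).

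Pmaip1 (ENSMUSG00000024521) encodes NOXA, a p53 target that binds MCL-1. Its TPM was 35.1, 41.8, 35.5 and 36.6 in control dishes and 37.0, 33.4, 35.5 and 36.1 in ELF-WMF dishes. The highest value was that of control replicate 2, the lowest that of ELF-WMF replicate 2, and the remaining 6 dishes lay between 35.1 and 37.0. The log2 fold change was -0.065 (95% interval -0.193 to 0.063, limma adjusted p = 0.64). It was smaller without these extremes, being -0.010 without control replicate 2 and -0.036 without ELF-WMF replicate 2. Without any other dish it ran from -0.065 to -0.092, and under the 3 other scalings it was -0.094 to -0.098.

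The transcripts of both released proteins overlapped between the groups. Cycs (ENSMUSG00000063694, chromosome 6 from 50562563 to 50566538) encodes somatic cytochrome c, the electron carrier between respiratory complexes III and IV. Its TPM was 234.9, 223.9, 212.6 and 216.0 in control dishes and 225.8, 239.5, 213.8 and 214.7 in ELF-WMF dishes. Replicates 1 and 2 were the higher dishes in both groups, the ranges overlapped, and the log2 fold change was 0.0099 (95% interval -0.088 to 0.107, limma adjusted p = 0.943), just below 0 under the 3 other scalings. With 1 dish left out it ran from -0.024 (without ELF-WMF replicate 2) to 0.038 (without control replicate 1). It was also below 0 without control replicate 3 (-0.010) or control replicate 4 (-0.0026), and above the value from all dishes without ELF-WMF replicate 3 (0.030) or ELF-WMF replicate 4 (0.029). Cycs was the member with near-identical copies, 4 transcripts of at least 95% identity. Of these, Gm10053 had a mean of 7.44 TPM with 99.9% identity. Gm10108 had a mean of 0.141 TPM, from 1.13 TPM in control replicate 4 and 0 in every other dish. The copies held 3.29% of the summed TPM of Cycs and copies, so the split of reads among them is uncertain. Summing them, an alternative chosen after seeing the data, gave a log2 fold change of 0.0029 (limma adjusted p = 0.986).

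Diablo (ENSMUSG00000029433, chromosome 5 from 123509765 to 123524176) encodes SMAC, which binds inhibitor of apoptosis proteins. It had 34.6, 30.8, 35.3 and 35.5 TPM in control dishes and 33.2, 37.3, 32.7 and 34.3 TPM in ELF-WMF dishes. Control replicate 2 was the lowest and ELF-WMF replicate 2 the highest, and the log2 fold change was 0.013 (95% interval -0.112 to 0.139, limma adjusted p = 0.939), likewise below 0 under the 3 other scalings. Leaving out control replicate 2 or ELF-WMF replicate 2 gave -0.033 and -0.025, whereas leaving out control replicate 3, control replicate 4, ELF-WMF replicate 1 or ELF-WMF replicate 3 gave 0.030, 0.033, 0.029 and 0.036. The ratio of Cycs to Diablo TPM was 6.54 ± 0.59 (SD, n = 4) in controls and 6.51 ± 0.23 (SD, n = 4) in ELF-WMF dishes.

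With limma, 0 of 10 members had an adjusted p under 0.05, as did 0 of the 12122 tested genes (0%). On leaving out 1 dish, 6 genes passed without ELF-WMF replicate 2, 2 without control replicate 2 and 1 without control replicate 3, none of them a member. At an unadjusted p under 0.05 there was 1 member, Bid, beside 1894 of the tested genes (15.6%), of which 1451 (12% of tested genes) were higher and 443 (3.65%) lower in ELF-WMF dishes under TPM as deposited. That surplus of higher genes was absent under the 3 other scalings, where 673 were higher and 755 lower with median-of-ratios scaling, 588 and 801 with upper-quartile scaling, and 688 and 689 without the mitochondrial genes. In 1 member, again Bid, the groups did not overlap, beside 1196 of the tested genes (9.87%). A count of 1 in 10 members lies near both shares. The count at an unadjusted p under 0.05 was 3 without control replicate 4 (Mcl1, Bcl2l1 and Bid, beside 13.8% of the genes tested then), 2 without ELF-WMF replicate 1 (Bcl2l1 and Bid, beside 16.3%) and 2 without ELF-WMF replicate 4 (Bid and Bcl2l11, beside 15.9%), and 1 on leaving out any other dish. Without control replicate 4 the groups were also separate in Bcl2l1, making 2 members, beside 13.8% of the genes tested then. In log2 fold change, 6 of 10 members lay above 0 with a median of 0.0060. Among the tested genes 63.7% did, with a median of 0.026. Under each other scaling 3 of 10 members lay above 0. Their medians were -0.022 with median-of-ratios scaling, -0.026 with upper-quartile scaling and -0.023 without the mitochondrial genes. In the same order, 49.2%, 47% and 49.1% of the tested genes lay above 0, with medians of -0.0013, -0.0053 and -0.0016. Under TPM as deposited without ELF-WMF replicate 2, 3 of 10 members lay above 0 with a median of -0.019. Among the tested genes 58.1% did, with a median of 0.016. Without any other dish 5 to 7 of 10 members did, with medians from -0.0014 (without control replicate 2) to 0.018 (without control replicate 1). The 95% intervals of the 10 members together ran from -0.267 to 0.207.

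**Figure D2:**
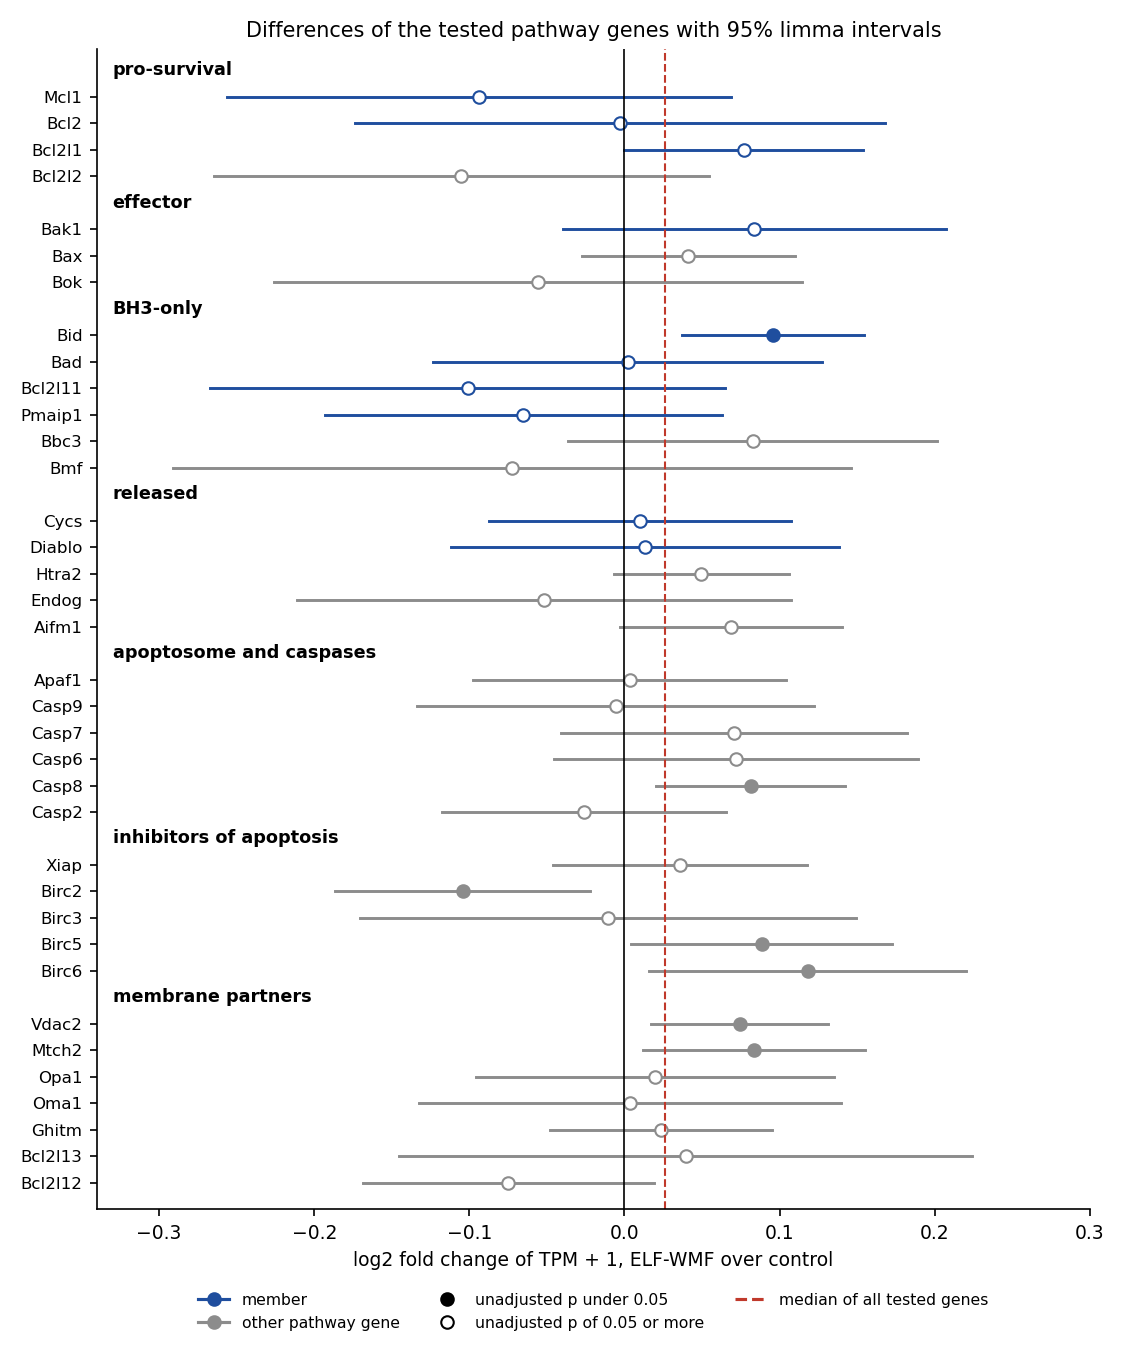
Log2 fold change of TPM + 1 (ELF-WMF over control) with 95% limma intervals for 10 members (blue) and 26 of the 27 other tested pathway genes (grey), by role, where filled points have an unadjusted p under 0.05 and the dashed line is the median of all tested genes (0.026). Bid is the filled point among the members, and the intervals of the other 9 reach 0.

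To compare the pro-survival with the pro-death members, their TPM was summed in each dish. The sum over Mcl1, Bcl2 and Bcl2l1 was 338 ± 13 (SD, n = 4) in controls and 347 ± 8.6 (SD, n = 4) in ELF-WMF dishes, and the sum over the 5 pro-death members was 309 ± 12 (SD, n = 4) and 319 ± 6.3 (SD, n = 4). The ratio of pro-survival to pro-death TPM was 1.12, 1.08, 1.10 and 1.07 in control dishes and 1.08, 1.09, 1.09 and 1.10 in ELF-WMF dishes. All 4 ELF-WMF dishes lay within the control range, and the means of 1.09 ± 0.021 (SD, n = 4) and 1.09 ± 0.0080 (SD, n = 4) differed by -0.0054, less than the SD of either group. Its sign was not stable, since it was 0.0039 without control replicate 1, and its size varied from -0.0019 without ELF-WMF replicate 1 to -0.012 without control replicate 4. As a score over chosen members, the ratio was given no test.

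The pro-survival sum rested mainly on Bcl2l1, which made up 74.1% to 79.2% of it over the 8 dishes. In the pro-death sum, Bid held the largest share, 37.4% to 40.0%. Without Bid, the ratio was 1.76 ± 0.042 (SD, n = 4) in control and 1.80 ± 0.024 (SD, n = 4) in ELF-WMF dishes, so that the difference was 0.032 in place of -0.0054, with overlapping groups. Without Bcl2l1 it was 0.262 ± 0.029 (SD, n = 4) and 0.237 ± 0.0041 (SD, n = 4), a difference of -0.025 with overlapping groups. With every listed pro-survival and pro-death gene, Bax included, the ratio was 0.490 ± 0.0074 (SD, n = 4) and 0.485 ± 0.0093 (SD, n = 4), and pro-death transcripts then outnumbered pro-survival ones in every dish.

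**Figure D3:**
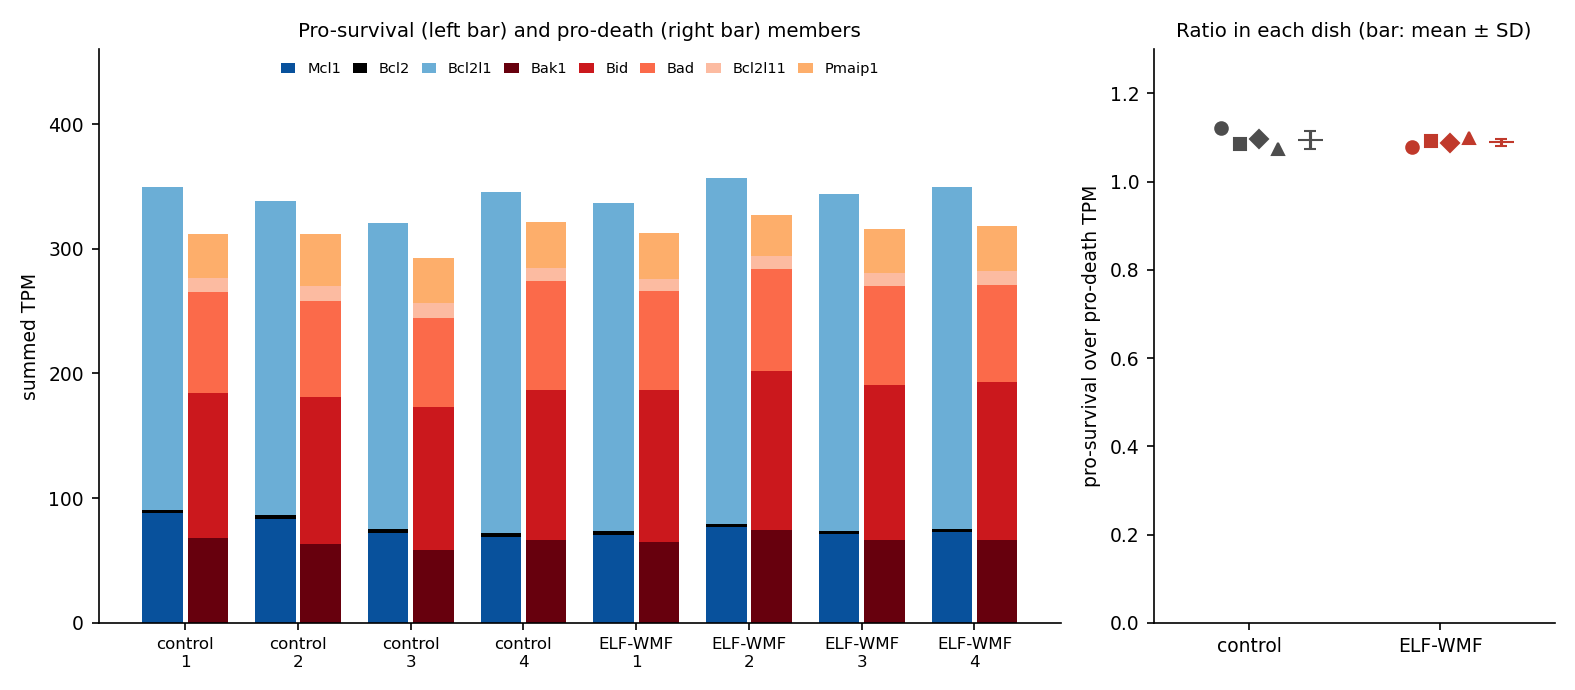
Left, TPM of the 3 pro-survival members (left bar of each pair) stacked beside that of the 5 pro-death members (right bar) in each of the 8 dishes. Right, their ratio in each dish with the mean ± SD (n = 4): the ELF-WMF dishes (1.08 to 1.10) lie within the range of the control dishes (1.07 to 1.12).

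Ratios between binding partners within a dish do not depend on the scaling of TPM. Mcl1 over Bak1 was 1.298, 1.316, 1.22 and 1.044 in control dishes and 1.09, 1.03, 1.07 and 1.10 in ELF-WMF dishes. The first 3 control dishes lay above all ELF-WMF dishes, and control replicate 4 lay among them. Bcl2l1 over Bak1 was 4.03 ± 0.17 (SD, n = 4) and 4.01 ± 0.19 (SD, n = 4), Bcl2l1 over Bid 2.19 ± 0.066 (SD, n = 4) and 2.16 ± 0.011 (SD, n = 4), and Mcl1 over Pmaip1 2.10 ± 0.28 (SD, n = 4) and 2.05 ± 0.17 (SD, n = 4). Bcl2l1 over Bad was 3.25 ± 0.14 (SD, n = 4) in control and 3.42 ± 0.098 (SD, n = 4) in ELF-WMF dishes. Mcl1 over Bcl2l11 was 6.91 ± 0.84 (SD, n = 4) in control and 6.98 ± 0.80 (SD, n = 4) in ELF-WMF dishes. The groups overlapped in each of these ratios, which were not tested.

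The pathway list held 36 genes besides the members, of which 27 were tested. At an unadjusted p under 0.05, 6 were higher and 1 lower in ELF-WMF dishes (1 and 2 under each other scaling), none had an adjusted p under 0.05 by limma, and 18 of 27 lay above 0 (14 under each other scaling) with a median log2 fold change of 0.036. That median was 0.0026 to 0.0069 under the 3 other scalings, and with 1 dish left out it ran from 0.010 (without ELF-WMF replicate 2) and 0.019 (without control replicate 1) to 0.047 (without control replicate 3). Among all tested genes 12% were higher, 3.65% lower and 63.7% above 0. With median-of-ratios scaling these shares were 5.55%, 6.23% and 49.2%, with upper-quartile scaling 4.85%, 6.61% and 47.0%, and without the mitochondrial genes 5.68%, 5.68% and 49.1%. The list was not tested as a set. Under each of the 3 other scalings the count was 3, and the lower genes were Birc2 and Bcl2l12. Bcl2l12 had a log2 fold change of -0.075 as deposited (limma adjusted p = 0.433). Casp8, the protease upstream of BID and the most abundant listed caspase, was 70.6 ± 1.2 TPM (SD, n = 4) in controls and 74.8 ± 1.6 TPM (SD, n = 4) in ELF-WMF dishes, a log2 fold change of 0.081 (limma adjusted p = 0.194). Its groups did not overlap. Under the 3 other scalings its log2 fold change was 0.048 to 0.052 with an unadjusted p above 0.05, and the groups were separate with median-of-ratios scaling and overlapped with the other 2.

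Among the inhibitors of apoptosis, Birc2, the ubiquitin ligase cIAP1, was the lower gene at 20.1 ± 0.53 TPM (SD, n = 4) in control and 18.6 ± 0.34 TPM (SD, n = 4) in ELF-WMF dishes (log2 fold change -0.10, limma adjusted p = 0.215). Without control replicate 1 its log2 fold change was -0.089 with the groups still separate (limma, unadjusted p = 0.0562, adjusted p = 0.349). With the 3 other scalings Birc2 was -0.132 to -0.136, also with separate groups (limma, unadjusted p = 0.0047 to 0.0067, adjusted p = 0.24 to 0.255). Birc5, which encodes survivin of the mitotic chromosomal complex, was the most abundant of them (log2 fold change 0.088, limma adjusted p = 0.296), and Birc6, a very large ubiquitin ligase, had 0.12 (limma adjusted p = 0.249). The groups did not overlap for Birc2 and Birc5 and overlapped for Birc6. Birc5 lost its unadjusted p under 0.05 with a smaller log2 fold change without control replicate 3 (0.062) and ELF-WMF replicate 1 (0.058), and with a slightly larger one without control replicate 1 (0.095), control replicate 2 (0.095) and ELF-WMF replicate 2 (0.092), and its groups stayed separate in these 5 cases. Birc6 lost it without control replicate 1 (0.10), control replicate 2 (0.10), ELF-WMF replicate 1 (0.10) or ELF-WMF replicate 2 (0.090). With the replicate number as a block Birc6 also lost it (limma, unadjusted p = 0.0646), at an unchanged log2 fold change of 0.12. Of the membrane partners, Vdac2, the channel that binds BAK, had a log2 fold change of 0.074 (limma adjusted p = 0.206), and Mtch2, a receptor for cleaved BID, had 0.084 (limma adjusted p = 0.248). Mtch2 was 0.073 without control replicate 4, 0.064 without ELF-WMF replicate 1 and 0.073 without ELF-WMF replicate 3, each with an unadjusted p between 0.0700 and 0.0726. Without the trend in limma the log2 fold changes of Mtch2 and Birc5 were the same as with it, and their unadjusted p was 0.0554 and 0.0746. Under each of the 3 other scalings, Birc5, Birc6, Vdac2 and Mtch2 all had an unadjusted p above 0.05, with log2 fold changes of 0.055 to 0.059, 0.085 to 0.089, 0.041 to 0.045 and 0.050 to 0.054, and the groups of Birc5 overlapped. Ghitm, an inner membrane protein that retains cytochrome c and the most abundant partner (372 TPM), had a log2 fold change of 0.023, just below 0 under the 3 other scalings. It also varied from 0.0045 without control replicate 3 and 0.0060 without ELF-WMF replicate 2 to 0.039 without control replicate 4 and 0.046 without ELF-WMF replicate 1.

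Besides the members, the most abundant listed gene among the released proteins was the protease Htra2 (110 TPM). Among the BH3-only genes it was Bbc3, which encodes PUMA (29.6 TPM). Among the pro-survival genes it was Bcl2l2, which encodes BCL-W (26.4 TPM). Htra2 had a log2 fold change of 0.050 (limma adjusted p = 0.384), which was 0.064 without ELF-WMF replicate 3 (limma, unadjusted p = 0.0341, adjusted p = 0.31) and 0.016 to 0.020 under the 3 other scalings. Bbc3 had 0.083 (limma adjusted p = 0.499), which was 0.12 without control replicate 1 (limma, unadjusted p = 0.0388, adjusted p = 0.302), 0.046 without control replicate 3 and 0.050 to 0.054 under the 3 other scalings. For Bcl2l2 it was -0.11 (limma adjusted p = 0.524). It was -0.059 without control replicate 2 and -0.064 without ELF-WMF replicate 3, but -0.14 without control replicate 1 and -0.15 without ELF-WMF replicate 4. With the 3 other scalings Bcl2l2 was -0.133 to -0.138.

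Below the abundance filter were 9 listed genes. Bcl2a1a, Bcl2a1b, Bcl2a1c and Bcl2a1d, the A1 genes known from blood cells, were listed at 0 in every dish. Bcl2l10 was above 0 in 1 dish (0.05 TPM), Hrk reached at most 0.01 TPM, and the means of Bik, Bcl2l14 and Bcl2l15 were 0.285, 0.36 and 0.59 TPM.

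Since TPM is a closed sum, the share held by the genes of the mitochondrial chromosome was examined beside the members. It was 8.72%, 8.69%, 9.42% and 8.93% in control dishes and 6.96%, 5.99%, 7.69% and 7.52% in ELF-WMF dishes, a difference of -1.90 percentage points without overlap (p = 0.0286, two-sided exact permutation test, the smallest p that 70 assignments allow). When TPM was rescaled without these genes, the median of all genes became -0.0016 in place of 0.026, and 3 of 10 members in place of 6 lay above 0. Bid then had a log2 fold change of 0.066 (limma, unadjusted p = 0.0250, adjusted p = 0.352), and its groups overlapped. With median-of-ratios scaling Bid was 0.067 and with upper-quartile scaling 0.062, without overlap. Bcl2l1, Bak1 and Bid lay above 0 and Mcl1, Bcl2, Bcl2l11 and Pmaip1 below 0 under all 4 scalings, whereas Bad, Cycs and Diablo turned from just above to just below 0 under each of the 3 other scalings.

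**Figure D4:**
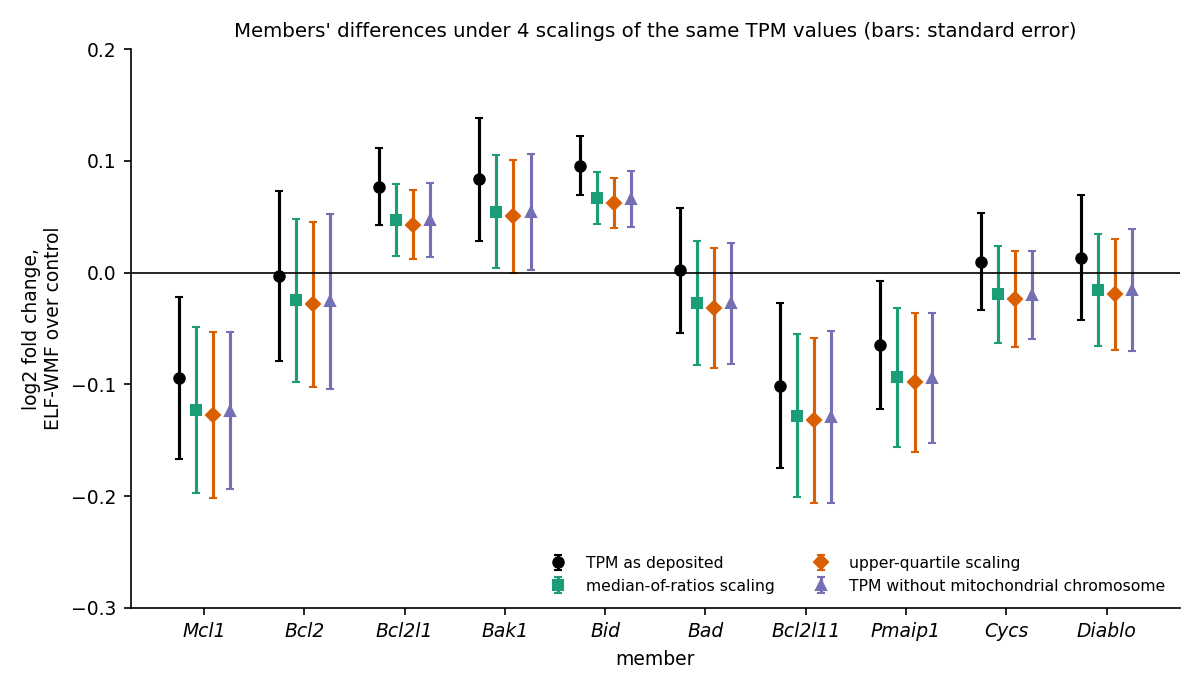
Log2 fold change (ELF-WMF over control) of each member under 4 scalings of the same TPM values, with bars for the standard error from limma. Bid, Bcl2l1 and Bak1 lie above 0 under each scaling, and Bad, Cycs and Diablo turn from above to below 0 under the 3 scalings other than TPM as deposited.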

How the data were processed

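RNA-seq used a stranded mRNA kit on total RNA of AML12 cells. Values are TPM as deposited by the submitters, whose processing notes name Trimmomatic 0.39, STAR 2.7.4a, RSEM 1.3.3 and mm10. No counts were given, so depth is unknown and no count test was run.

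Members were taken by symbol. The members and lists were chosen with earlier results of these data known. Differences were tested, two-sided, with limma 3.58.1 (lmFit, eBayes with a trend) in R 4.3.3 on log2(TPM + 1) for the 12122 genes that passed the filter, with Benjamini-Hochberg adjustment over all of them, and the pipeline was tested on simulated data. Of 36 other pathway genes, the text names those with an unadjusted p under 0.05 except 1, the most abundant of each role and those below the filter. Bcl2l12 and Bcl2l13 were named after their values were seen. Tables were made in Python 3.11.15.

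Positions and transcripts came from GENCODE M21, which held 55141 of the 55401 gene identifiers. Near-identical copies were transcripts of at least 200 bases, aligned by BLAST 2.17.0 over at least 80% of their length with at least 95% identity. The length limit was set after seeing the matches and left out short annotated miRNAs. Pearson's r over tested genes lay between 0.9907 and 0.9941 for all pairs of dishes, and each dish counted as 1 sample. Alternatives covered the pseudocount, filter, scaling, trend, replicate block and leaving out each dish.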

Additional observations from a re-analysis of the deposited data

How the results depend on the processing

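No member passed an adjusted p of 0.05 under any of the 17 alternatives fitted by limma. Over all tested genes the count was 1 in place of 0 with the filter of a TPM of at least 1 in every sample, with median-of-ratios scaling, with upper-quartile scaling and without the trend, and 0 to 6 when 1 dish was left out (6 without ELF-WMF replicate 2, 2 without control replicate 2, 1 without control replicate 3). The count at an unadjusted p under 0.05 was 1894, and 1196 by groups that do not overlap, an alternative chosen after seeing the data. Of the calls, 76.6% were higher in ELF-WMF dishes, against 47.1% with median-of-ratios scaling, 42.3% with upper-quartile scaling and 50% without the mitochondrial genes.

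For members the count was 2 with the filter of a TPM of at least 1 in every sample, where Bcl2l1 joined Bid (limma, unadjusted p = 0.0491, adjusted p = 0.309), and 1 to 3 when 1 dish was left out. Bid kept its direction and an unadjusted p under 0.05 in all alternatives, with an adjusted p of 0.139 to 0.352 by limma. For other pathway genes the count of 7 became 3 under each of the 3 other scalings. The ratio of pro-survival to pro-death TPM differed by 0.032 without Bid and by -0.025 without Bcl2l1, in place of -0.0054, and by -0.012 to 0.0039 when 1 dish was left out. Of 375 values of 22 genes followed under the alternatives, 335 stayed on their side of an unadjusted p of 0.05, 31 lost it, and 9 newly passed it. The sign changed in 23 of the 375, in Bcl2, Bad, Cycs, Diablo and Ghitm, and none of these had an unadjusted p under 0.05. The cause was not tested.

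With the replicate number as a block, 0 genes passed the adjusted threshold, and 1889 had an unadjusted p under 0.05. These included 1 member and 6 other pathway genes, with Birc6 no longer among them. The mitochondrial share differed by -1.90 with p = 0.125, the smallest that the exact sign-flip test over 4 pairs allows. The deviations of same-numbered dishes correlated between -0.042 and 0.026, and 0 of 4 control dishes correlated best with its own number. Correlations over all tested genes with 4 dishes per group cannot decide whether same-numbered dishes shared handling, which was not tested. Depth is unknown, and the counting error of low genes such as Bcl2 could not be given.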
